A study of Mus musculus with 2 samples.

Results

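The genes of MHC class II antigen presentation described here are 10 of the 32285 genes in the count tables: H2-Aa, H2-Ab1, H2-Eb1, H2-DMa, H2-DMb1, H2-DMb2, H2-Oa, H2-Ob, Cd74 and Ciita, each found by its symbol. The study sorted live CD45+CD31- leukocytes from the hand-picked pancreatic islets of 12-week-old female mice of the NOD strain, which develops autoimmune diabetes, and of NOD.Cxcl16-/- mice, which are labelled as lacking the chemokine CXCL16 on the same strain. Each genotype is 1 droplet library of 3′ single-cell RNA-seq (1 WT NOD, 1 NOD.Cxcl16-/-), and the sources used here do not say how many mice were pooled in it or how the allele was made. With 1 library per genotype there is no test between genotypes: every interval below is an exact 95% interval that covers counting error only, and no p-value is given.

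MHC class II molecules are pairs of an alpha and a beta chain that hold peptides from internalized protein at the surface of professional antigen-presenting cells for CD4 T cells. The invariant chain, encoded by Cd74, escorts new pairs to endosomes, the H2-DM pair then exchanges the remnant of the invariant chain for peptide, and the H2-DO pair restrains H2-DM. The transactivator CIITA, which binds no DNA itself, is recruited to X and Y elements of class II promoters by the RFX, CREB and NF-Y factors. NOD mice carry a class II haplotype with a variant I-A beta chain and lack surface I-E because the E alpha chain is not made. The reads were counted against a C57BL/6 reference, and how allelic differences touched the counts of H2-Aa, H2-Ab1 and H2-Eb1 was not tested.

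In the mm10 (GRCm38) annotation 8 of the 10 members lie in 224 kb of chromosome 17, chr17:34092340-34316674, from H2-Oa to H2-Eb1. Promoter sequences from RefSeq (GRCm38.p6, 250 bases before to 50 after a start) were at hand for 7 members. In 6 of them an X-type motif, AACNNATG or GCAAC on the gene's strand, stood 10 to 30 bases upstream of the Y motif TGATTGG, an arrangement held by 0.138% of the 32544 promoters of that table. Searched on both strands, TGATTGG alone occurred in 7.8% of all promoters, AACNNATG in 8.86% and GCAAC in 35.1%. The stretches of 5 members are shown because the motif pair is what these genes share in sequence. Capitals mark the X-type motif and then the Y motif, and each line is 5′ to 3′ on the gene's strand with 10 bases on either side.
H2-Aa: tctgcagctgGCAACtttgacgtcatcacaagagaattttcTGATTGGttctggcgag
H2-Eb1: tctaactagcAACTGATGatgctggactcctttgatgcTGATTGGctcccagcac
H2-DMb2: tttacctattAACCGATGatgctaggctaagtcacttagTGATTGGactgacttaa
H2-Oa: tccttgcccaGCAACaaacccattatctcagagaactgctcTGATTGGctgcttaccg
H2-Ob: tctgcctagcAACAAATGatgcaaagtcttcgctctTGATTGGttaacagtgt
They lie at chr17:34287857-34287914 on the minus strand for H2-Aa, and on the plus strand at chr17:34305768-34305822 for H2-Eb1, chr17:34145118-34145173 for H2-DMb2, chr17:34092293-34092350 for H2-Oa and chr17:34238810-34238862 for H2-Ob. In H2-Aa and H2-Oa 26 bases separate the motifs, against 21 in H2-DMb2, 20 in H2-Eb1 and 18 in H2-Ob. H2-DMb1 holds the pair as well, 21 bases apart. In H2-Ob and H2-Eb1 the letters GCAAC overlap AACNNATG. A match is a description of the letters, not of a factor's binding.

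The WT NOD library held 13859 barcodes with 93553185 UMIs (unique molecular identifiers, the counted transcript molecules), and the library labelled NOD.Cxcl16-/- held 10554 barcodes with 98681133 UMIs. After filters on genes, mitochondrial share and doublets 10715 and 9323 cells remained, with medians of 3871 and 4899 UMIs, and 45 barcode sequences occurred in both libraries. Marker gates that use no class II gene placed 11320 of the 20038 cells in 16 cell gates, and 8718 cells met no gate. B cells (1656 and 1835), CD8 T cells (1838 and 1307) and CD4 T cells (1212 and 1242) were the gates with the most cells, while classical monocytes had 16 and 12 cells, so that their values rest on little. Pairs of values without a library name give WT NOD first and the library labelled NOD.Cxcl16-/- second, in CPM, which are UMIs of the gene per 1000000 UMIs of the gate's cells. Cxcl16 transcripts were present in both libraries, at 103.3 CPM in all WT NOD barcodes and 102.0 CPM in those labelled NOD.Cxcl16-/-, and at 880.0 and 470.8 CPM in macrophages. Where the deletion lies is not given in the sources used here, so 3′ reads may not test it, and the second library is named by its label throughout.

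Macrophages had the highest levels of the classical chains and Cd74 in both libraries. Plasma cells aside, which were lower still, the lowest antigen-presenting gate was plasmacytoid dendritic or cycling B cells, depending on gene and library. H2-Aa, the alpha chain of I-A, reached 11370 CPM (interval 11080 to 11670) in WT NOD macrophages and 12340 CPM (12150 to 12530) in macrophages labelled NOD.Cxcl16-/-. Type 2 dendritic cells followed at 9769 and 10820 CPM of H2-Aa, then the Ifitm3 Cfp myeloid gate at 9041 and 9244, type 1 dendritic cells at 8858 and 9233, classical monocytes at 8553 and 7127 and migratory dendritic cells at 7804 and 8952. B cells had 5068 and 5028 CPM of H2-Aa, plasmacytoid dendritic cells 2673 and 4540, cycling B cells 2661 and 2732, and plasma cells 489 and 736. In both libraries the Ifitm3 Cfp myeloid and type 1 dendritic gates did not differ beyond counting error in H2-Aa, and in the WT NOD library their intervals overlapped that of the monocytes, as did those of plasmacytoid dendritic and cycling B cells with each other. Migratory dendritic cells had less H2-Aa than type 1 dendritic cells, with log2 ratios of -0.18 (-0.23 to -0.13) and -0.05 (-0.09 to -0.004).

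H2-Ab1, the I-A beta chain, was likewise highest in macrophages, at 10650 and 9981 CPM, against 3205 and 3364 CPM in B cells. H2-Eb1, the beta chain of I-E, was transcribed in the same gates although its partner is not made in this strain: 10770 and 11230 CPM in macrophages, 7333 and 7649 in type 1 dendritic cells, 3966 and 3857 in B cells. Cd74 stood at 21260 and 27510 CPM in macrophages, 20490 and 21330 in type 2 dendritic cells, 18760 and 19100 in the Ifitm3 Cfp myeloid gate and 12130 and 13080 in B cells. Plasma cells had 4821 and 3936 CPM of Cd74. Across the 9 other antigen-presenting gates the lowest Cd74 level was 7294 CPM in plasmacytoid dendritic cells of the WT NOD library and 7693 CPM in cycling B cells of the other. Cd74 in macrophages exceeded that in type 2 dendritic cells by 1.04-fold in the WT NOD library, a log2 ratio of 0.05 (0.004 to 0.10), and by 1.29-fold in the other.

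**Figure D1:**
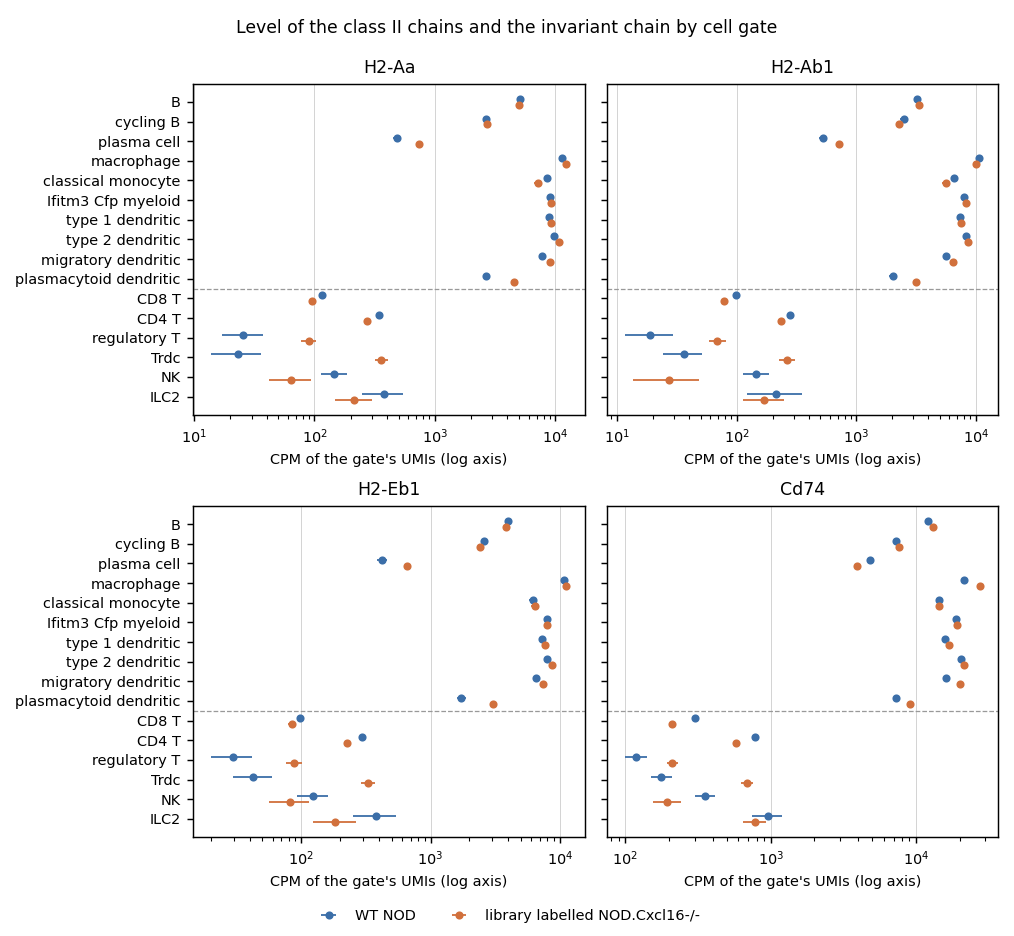
Levels of H2-Aa, H2-Ab1, H2-Eb1 and Cd74 (CPM, log axis) in each cell gate for both libraries, with exact 95% Poisson intervals for counting error. Macrophages have the highest value for each gene in both libraries, and each T, NK and ILC2 gate lies below the B cells, as with H2-Aa at 115.2 CPM in CD8 T cells and 5068 CPM in B cells of the WT NOD library.

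Macrophages and B cells differed in which class II genes they held. At a difference of at least 1.5-fold with an interval that leaves out no change, in both libraries, 5 members were higher in macrophages than in B cells (H2-Aa, H2-Ab1, H2-Eb1, H2-DMb1 and Cd74) and 3 were lower (H2-DMb2, H2-Oa and H2-Ob). Of all genes with a mean of at least 10 CPM in the pair, 19.2% were higher and 25.3% lower by the same rule, so the number of members that differ says little and the direction of each is what is described. H2-Ab1 was 3.32-fold and 2.97-fold higher in macrophages, and Cd74 1.75-fold and 2.10-fold. H2-Ob, the beta chain of H2-DO, was 12.8-fold and 6.97-fold lower there, on 8 and 34 UMIs. H2-DMa at 695.7 and 799.4 CPM in macrophages against 581.2 and 568.6 in B cells, and Ciita at 125.4 and 124.0 against 97.3 and 93.0, did not reach 1.5-fold.

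The beta chain of the H2-DM peptide exchanger comes from H2-DMb1 and H2-DMb2, and the gates split by which of the pair they used. In B cells H2-DMb1 had 215.4 and 204.8 CPM and H2-DMb2 609.9 and 624.3, so that H2-DMb1 made up 26.1% (25 to 27.2) and 24.7% (23.7 to 25.7) of their joint UMIs. In macrophages the levels were 613.4 and 543.0 CPM for H2-DMb1 and 98.0 and 111.0 for H2-DMb2, an H2-DMb1 share of 86.2% (82.2 to 89.6) and 83.0% (80.3 to 85.5). The share in type 1 dendritic cells was 72.6% and 74.6%, near the macrophage end, and that in migratory dendritic cells, 26.0% and 22.4%, near the B cell end. Type 2 dendritic cells, at 51.4% and 40.0%, and the Ifitm3 Cfp myeloid gate, at 36.5% and 35.3%, lay between them. Classical monocytes had 88.1% and 78.5%. In plasmacytoid dendritic cells the libraries stood apart, at 90.2% (83.1 to 95) and 68.3% (60.6 to 75.3). Of the 50-base words in the last 500 bases of their transcripts, 27.4% of those of H2-DMb1 also occur in H2-DMb2, and 13.6% of those of H2-DMb2 occur in 164 genes outside the members. Reads from such words could go uncounted or count elsewhere, which touches both counts, and the share is to be read between gates and not as a ratio of molecules.

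The chains of H2-DO, H2-Oa and H2-Ob, were like H2-DMb2 lower in macrophages than in B cells. H2-Oa was highest in the Ifitm3 Cfp myeloid gate, at 470.8 and 391.5 CPM, then in type 2 dendritic cells at 307.2 and 330.6. B cells had 242.9 and 198.9 CPM and migratory dendritic cells 186.6 and 285.6, so their order differed between the libraries. In macrophages H2-Oa was low, at 64.7 and 57.0. H2-Ob was highest in B cells at 212.6 and 186.1 CPM, with 119.6 and 137.2 in the Ifitm3 Cfp myeloid gate and 15.7 and 25.9 in macrophages. Summed over both chains, B cells held 0.324 (0.312 to 0.336) and 0.275 (0.265 to 0.286) UMIs of H2-DO per UMI of H2-DM, while macrophages held 0.0571 (0.0406 to 0.0783) and 0.0570 (0.0466 to 0.0692). The Ifitm3 Cfp myeloid gate stood at the B cell end, with 0.360 and 0.324, as did migratory dendritic cells with 0.321 and 0.315, and type 1 dendritic cells held 0.154 and 0.180. Such ratios mix genes that are captured with unequal efficiency, so they are compared between gates only.

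**Figure D2:**
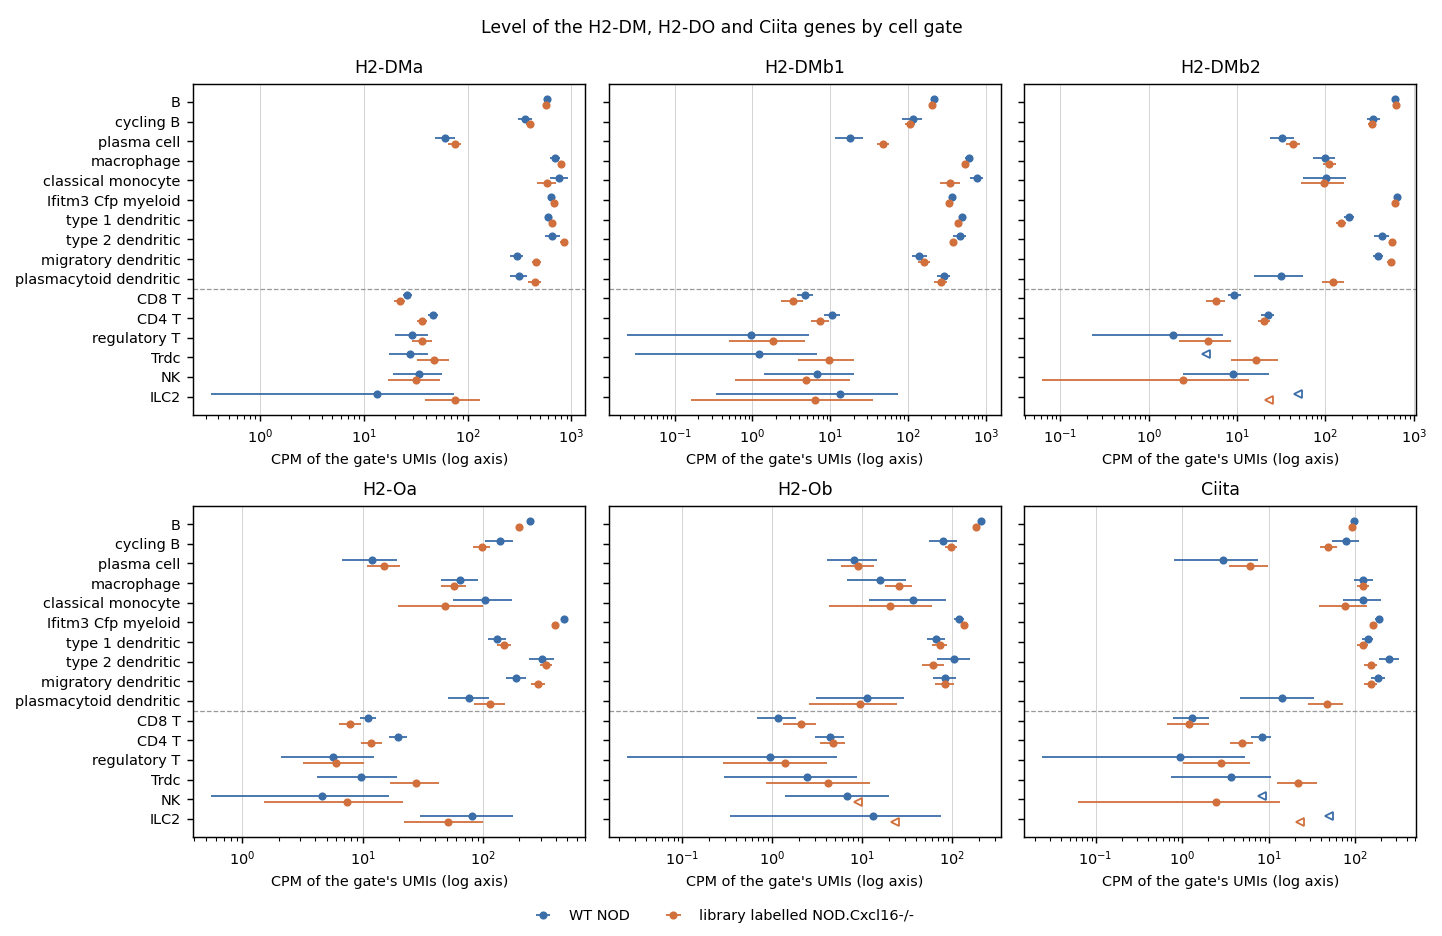
Levels of H2-DMa, H2-DMb1, H2-DMb2, H2-Oa, H2-Ob and Ciita (CPM, log axis) by gate and library with exact 95% Poisson intervals, where an open triangle is the upper limit of a gate with 0 UMIs. H2-DMb2, H2-Oa and H2-Ob fall from B cells to macrophages while H2-DMb1 rises, from 215.4 to 613.4 CPM in the WT NOD library.

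The Ifitm3 Cfp myeloid gate, cells gated by Ifitm3 and Cfp with a limit on C1q UMIs and no Cd209a or Clec10a UMI, differed from macrophages by this rule in 4 of these accessory chains. Relative to macrophages, H2-DMb2 was 6.49-fold and 5.54-fold higher, H2-Oa 7.18-fold and 6.76-fold and H2-Ob 7.23-fold and 5.14-fold, and H2-DMb1 was 1.66-fold and 1.60-fold lower. By that rule 13.5% of all genes were higher and 10.2% lower in both libraries. H2-Aa, H2-Ab1, H2-Eb1 and Cd74 were each lower by less than 1.5-fold. Of these cells 83.0% fell in a cluster named type 2 dendritic when cells were clustered without the members, and no cell type is assigned to them here.

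Migratory dendritic cells, gated by markers such as Ccr7 and Fscn1, had less H2-DMa and H2-DMb1 than type 2 dendritic cells, but not less H2-DMb2 beyond counting error. H2-DMa was 298.5 and 460.1 CPM against 657.0 and 840.8 in type 2 dendritic cells, 2.20-fold and 1.83-fold lower. H2-DMb1 was 140.8 and 159.9 CPM against 465.0 and 384.0, 3.29-fold and 2.39-fold lower. These were the only members that differed by the 1.5-fold rule in both libraries, beside 6.74% of all genes higher and 7.23% lower. H2-DMb2, at 400.3 and 555.3 CPM against 439.4 and 574.9, differed by 1.10-fold and 1.04-fold, and type 1 dendritic cells had 187.0 and 149.6 CPM. March1, which encodes a ubiquitin ligase that removes class II molecules from the surface of dendritic cells, was 10.2 and 14.7 CPM against 93.9 and 59.1, 8.49-fold and 3.84-fold lower. By cluster, 47.5% of the migratory gate and 65.4% of the type 1 dendritic gate shared a cluster, so their separation rests on the gate markers.

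Ciita, the gene of the transactivator, was detected in each antigen-presenting gate. It had 247.4 and 153.4 CPM in type 2 dendritic cells, 187.6 and 162.3 in the Ifitm3 Cfp myeloid gate, 186.6 and 152.6 in migratory dendritic cells, 140.0 and 122.3 in type 1 dendritic cells, 125.4 and 124.0 in macrophages and 97.3 and 93.0 in B cells. Plasmacytoid dendritic cells had 14.2 CPM (4.62 to 33.2) on 5 UMIs and 47.4 CPM (29.0 to 73.2) on 20 UMIs. The gene lies at chr16:10480059-10528418 and overlaps Dexi on the opposite strand. H2-Eb1, H2-DMa and H2-Oa likewise overlap another counted gene on the opposite strand, and whether counting used the strand is not given in the sources used here.

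Antibody-secreting plasma cells held little class II transcript beside a higher level of Cd74. In CPM all 10 members were at least 1.5-fold lower than in B cells in both libraries, yet so were 66.5% of all genes (6.51% were higher), and immunoglobulin transcripts took 57.3% and 47.7% of plasma cell UMIs against 1.14% and 1.14% in B cells. With immunoglobulin left out of the totals, a step chosen after these values were seen, H2-Aa was 4.48-fold and 3.61-fold lower than in B cells, H2-Ab1 2.62-fold and 2.49-fold, H2-DMa 4.14-fold and 4.01-fold, H2-Ob 11.3-fold and 10.9-fold and Ciita 14.2-fold and 8.16-fold. Cd74 was then 1.09-fold and 1.76-fold lower. The Cd74 UMIs per H2-Aa UMI, which do not depend on the totals, numbered 9.87 (9.10 to 10.7) and 5.35 (5.09 to 5.61) in plasma cells, against 2.39 and 2.60 in B cells and 1.87 and 2.23 in macrophages. With stricter gates the plasma cell ratio was 22.6 and 12.6. Pax5, the B cell factor, was 1.48 and 0.754 CPM in plasma cells and 217.1 and 211.3 in B cells, and Prdm1, which directs plasma cell differentiation, was 39.2 and 66.3 against 4.19 and 4.38.

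Cycling B cells, gated by cell-cycle genes, held fewer class II UMIs per total UMIs than the B cell gate. In both libraries 7 members were at least 1.5-fold lower, beside 8.3% of all genes lower and 14.6% higher. H2-Aa was 1.90-fold and 1.84-fold lower and Cd74 1.65-fold and 1.70-fold. These cells carried medians of 14825.5 and 21351.5 UMIs against 4438 and 4482 in the B gate, and their count was 20 and 72.

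Among single cells, nearly all B cells carried class II transcript, as did nearly all cells of the Ifitm3 Cfp myeloid and type 1 dendritic gates. When each cell was thinned to 2000 UMIs, H2-Aa, H2-Ab1, H2-Eb1 and Cd74 together had a median of 49 and 52 UMIs in B cells, with quartiles of 40 to 60 and 41 to 63, and 98.6% and 98.4% of B cells had 20 or more. The share at 20 or more was 100% and 100% in the Ifitm3 Cfp myeloid gate and 98.5% and 98.8% in type 1 dendritic cells. Thinning left out 136 and 62 shallower B cells. Macrophages had medians of 108 and 123 UMIs, type 2 dendritic cells 88.5 and 101, the Ifitm3 Cfp myeloid gate 85 and 89.5, type 1 dendritic cells 75 and 82, and migratory dendritic cells 65.5 and 87. Among migratory and plasmacytoid dendritic cells the spread was wide: in the WT NOD library the lower and upper quartiles were 43 and 85.8 UMIs in migratory cells and 8 and 41.8 in plasmacytoid cells. Plasma cells had a median of 10 UMIs in both libraries, with 13.1% and 25.2% of cells at 20 or more.

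**Figure D3:**
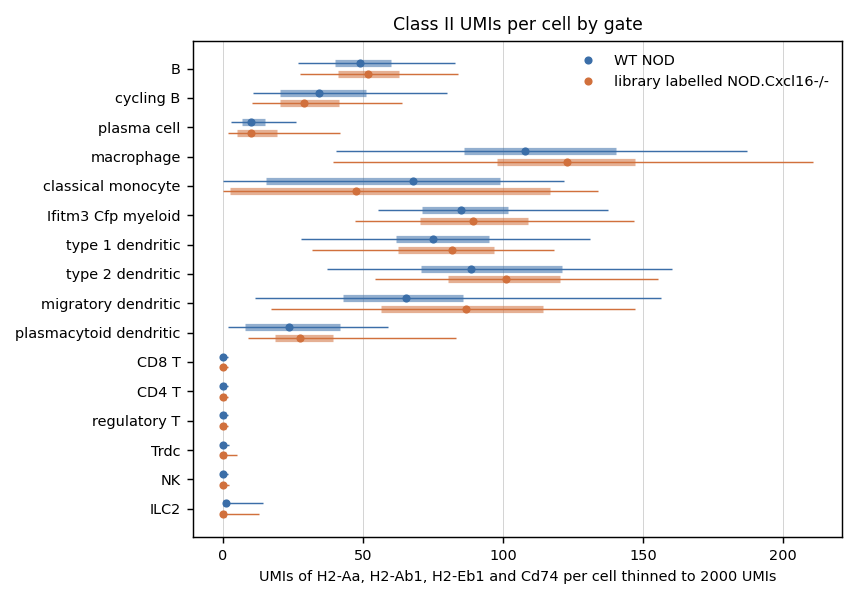
UMIs of H2-Aa, H2-Ab1, H2-Eb1 and Cd74 summed per cell after thinning every cell to 2000 UMIs, by gate and library, as the median (point), the quartiles (thick line) and the 5th to 95th percentile (thin line). B cell medians are 49 and 52 UMIs and macrophage medians 108 and 123, while the medians of the T and NK gates are 0.

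In T cells, which in mice do not make class II molecules as a rule, the members were measured as a background. CD8 T cells had 115.2 and 95.1 CPM of H2-Aa and 300.7 and 209.5 CPM of Cd74, and CD4 T cells 345.1 and 273.7 CPM of H2-Aa and 785.5 and 573.3 CPM of Cd74. After thinning, 75.4% and 76.3% of CD8 T cells had no UMI of the 4 genes, and an H2-Aa UMI was seen in 7.88% (6.63 to 9.27) and 6.53% (5.23 to 8.02), against 17.9% and 17.9% before thinning. Thinning left out 162 and 35 shallower CD8 T cells. The thinned share for H2-Aa was 8.90% and 7.60% in CD4 T cells, 7.20% and 6.94% in regulatory T cells, 4.32% and 11.8% in Trdc T cells and 5.56% and 7.50% in NK cells, at unthinned median depths from 4156.5 to 6182 UMIs. In B cells that share was 99.8% in the WT NOD library.

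In CD8 and CD4 T cells few cells held most of this signal. The 5% of CD8 T cells with the most UMIs of the 4 genes carried 83.5% and 79.9% of them, and in CD4 T cells 92.4% and 90.6%, whereas the same share of B cells carried 11.5% and 12.7%. The share was 25.1% and 71.3% in regulatory T cells, 60% and 85.3% in Trdc T cells, 80.5% and 71.1% in NK cells and 30.8% and 48.4% in ILC2 cells. In the WT NOD library those 92 CD8 T cells also had 3388 CPM of Cst3, a transcript abundant in dendritic cells, against 159.8 CPM in the other CD8 T cells, and in the library labelled NOD.Cxcl16-/- the 65 cells had 769.7 against 176.7 CPM. Whether these barcodes hold more than 1 cell was not tested. In the remaining 95% of cells H2-Aa was 20.03 and 21.0 CPM in CD8 T cells, 30.3 and 24.9 in CD4 T cells, 25.2 and 18.5 in regulatory T cells 19.6 and 39.6 in Trdc T cells and 19.4 and 16.0 in NK cells. Cd74 there was 58.7 (42.8 to 78.6) and 115.7 (91.2 to 144.8) in Trdc T cells, and Cd74 in those CD8 T cells was 46.1 (42.6 to 49.7) and 45.7 (41.6 to 50.1). This split used the members' own UMIs, so these values describe where the signal sat.

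In CD8 T cells H2-DMa and H2-Oa stood higher relative to H2-Aa than over all cells. Over all kept cells there were 0.0908 and 0.0842 H2-DMa UMIs per H2-Aa UMI, and in CD8 T cells 0.229 (0.204 to 0.255) and 0.234 (0.203 to 0.268). For H2-Oa per H2-Aa UMI the values were 0.0385 and 0.0257 over all kept cells and 0.0961 (0.0813 to 0.113) and 0.0831 (0.0664 to 0.103) in CD8 T cells. CD4 T cells had 0.134 and 0.133 for H2-DMa and 0.057 and 0.043 for H2-Oa. Not every gate was higher: in the WT NOD library H2-Oa was 0.031 in NK cells, on 2 UMIs, and H2-DMa 0.036 in ILC2 cells, on 1 UMI. In the remaining 95% of CD8 T cells H2-DMa was 20.5 (18.2 to 23.0) and 17.7 (15.2 to 20.5) CPM, as high as H2-Aa, and in the other T and NK gates it was 23.4 to 34.7 CPM. H2-DMa overlaps Brd2 on the opposite strand, and the part of such reads was not tested.

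Group 2 innate lymphoid cells (ILC2, 17 and 36 cells) had the highest Cd74 values of the T, NK and ILC2 gates, with intervals that include the next gate's value: 953.8 (744.9 to 1203) and 777.4 (646.1 to 927.6) CPM. H2-Aa was 376.1 (249.9 to 543.6) and 214.9 (148.8 to 300.3) CPM, on 28 and 34 UMIs. Without the highest 5% of cells, which are 1 and 2 cells, H2-Aa was 298.1 and 94.2 CPM and Cd74 638.7 and 410.4. The thinned share with an H2-Aa UMI was 29.4% (10.3 to 56.0) and 16.7% (6.37 to 32.8). In the WT NOD library that interval lies above the 7.88% of CD8 T cells, and in the other it includes their 6.53%. H2-Oa was 80.6 and 50.6 CPM, on 6 and 8 UMIs, beside 11.1 and 7.91 in CD8 T cells.

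**Figure D4:**
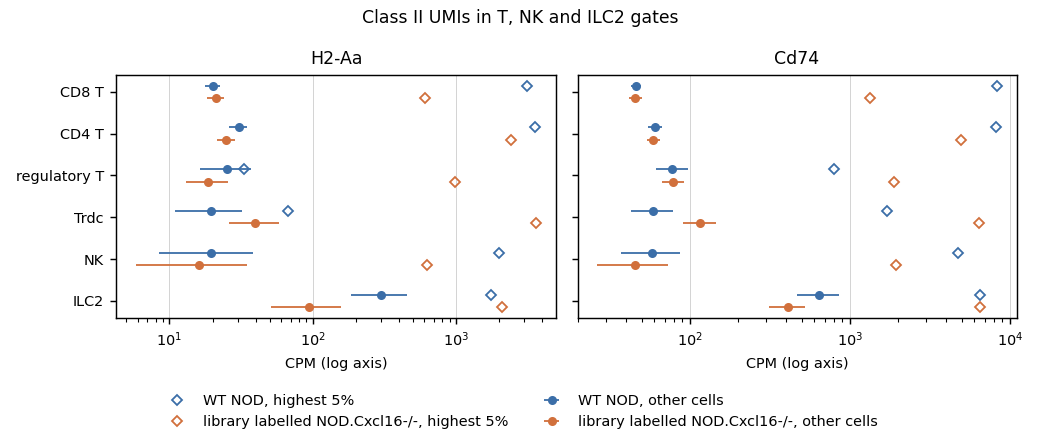
H2-Aa and Cd74 (CPM, log axis) in the T, NK and ILC2 gates of both libraries, in the 5% of cells with the most UMIs of the 4 genes (open diamonds) and in the other cells (points, with exact 95% Poisson intervals). In CD8 T cells H2-Aa is 3100 and 603.7 CPM in the highest cells and 20.03 and 21.0 CPM in the others.

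Between the libraries, class II transcript levels per cell type differed little in B cells and macrophages. In B cells no member differed by 1.5-fold, beside 1.05% of all genes higher and 0.768% lower in the library labelled NOD.Cxcl16-/-, and the median log2 ratio was -0.04 over the 10 members and 0.04 over all 7160 genes. In the Ifitm3 Cfp myeloid gate no member differed (3.29% of genes higher, 3.07% lower), with a median log2 ratio of 0.00 over the members. Macrophages had no member past the rule either (4.87% of genes higher, 5.25% lower), and their highest ratio with an interval that leaves out no change was that of Cd74, 1.29-fold, 0.37 on the log2 scale (0.34 to 0.40). For type 1 dendritic cells the count was again 0 of 10 (3.57% of genes higher, 4.39% lower).

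In the other antigen-presenting gates single members passed the rule. Migratory dendritic cells had H2-DMa and H2-Oa higher, 1.54-fold and 1.53-fold (4.96% of genes higher, 4.33% lower). With clusters in place of gates the log2 ratios were 0.14 and 0.01, but a cluster named migratory dendritic held other cells too. It contained 102 of the 156 cells of the type 1 dendritic gate. Type 2 dendritic cells, with 23 and 68 cells, had Ciita lower by 1.61-fold and H2-Ob lower by 1.70-fold (2.09% higher, 5.15% lower). When clusters replaced gates, Ciita had a log2 ratio of -0.34 and the H2-Ob difference had the opposite direction. Of the Ifitm3 Cfp myeloid gate 370 of 446 cells fell in a cluster named type 2 dendritic. Neither set of cluster values therefore measures the gated cells alone. Cycling B cells had Ciita lower by 1.57-fold (7.86% higher, 6.49% lower), a log2 ratio of -0.65 that was -0.24 after thinning, and the classical monocytes had H2-DMb1 lower by 2.17-fold, 766.2 against 352.6 CPM (3.79% higher, 2.53% lower). In plasma cells H2-Aa, H2-Eb1 and H2-DMb1 were higher by 1.51, 1.55 and 2.58-fold, but 23.6% of all genes were (2.17% lower). The median log2 ratio was 0.34 over all genes and 0.41 over the 8 members with at least 10 CPM. These differences therefore stand beside a shift of that gate as a whole, where immunoglobulin took 57.3% and 47.7% of UMIs. With immunoglobulin left out of the totals, H2-Aa was 1143 and 1408 CPM and H2-Eb1 985.8 and 1253. By those totals H2-DMb1 was 41.6 and 90.8 CPM, and Cd74 went the other way, at 11280 and 7529. These plasma cell ratios moved widely with the processing: the log2 ratio of H2-Aa, 0.59, was -0.068 with doublets kept and 2.64 with clusters, that of H2-Eb1, 0.64, was -0.10 and 2.70, and that of H2-DMb1, 1.37, was 0.84 and 2.74 and turned to -0.26 with stricter gates.

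Plasmacytoid dendritic cells, 46 and 42 cells, had the most members past the rule among antigen-presenting gates: 5 of 10 were higher in the library labelled NOD.Cxcl16-/-, beside 5.16% of all genes higher and 4.24% lower. H2-Aa was 2673 (2505 to 2850) and 4540 (4339 to 4748) CPM, 1.70-fold higher. H2-Ab1 was 2024 and 3158 CPM, 1.56-fold higher, and H2-Eb1 1737 and 3066, 1.76-fold higher. H2-DMb2 was 31.3 and 123.3 CPM, 3.85-fold higher, and Ciita 14.2 and 47.4, 3.18-fold higher. H2-DMb1, at 287.6 and 265.5 CPM, was not among them. The count of 5 fell to 2 with stricter gates, where H2-Ab1 and H2-Eb1 had log2 ratios of -0.022 and -0.016, to 2 after thinning and to 1 with doublets kept. The median log2 ratio was 0.60 over the members and -0.04 over all genes. This gate limited T cell, B cell and C1q UMIs, but not those of plasma cell, type 1 dendritic or migratory dendritic markers. Xcr1 and Clec9a, markers of type 1 dendritic cells, together had 54.1 and 80.6 CPM in it. What part such transcripts have in these ratios was not tested.

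The higher levels were found in part of the plasmacytoid cells. A split chosen after these ratios were seen separated cells with a UMI of Cd86, Cd83 or Cd40, which encode costimulatory and maturation molecules: 2 of 46 cells in the WT NOD library and 19 of 42 in the other had one. The 19 cells held 6126 CPM of H2-Aa, 12160 of Cd74, 227.4 of H2-DMb2, 65.0 of Ciita and 4404 of Cst3. The 23 others held 2884 CPM of H2-Aa, 6020 of Cd74, 14.5 of H2-DMb2, 29.1 of Ciita and 693.1 of Cst3. The 44 such cells of the WT NOD library held 2693 CPM of H2-Aa, 7356 of Cd74, 31.8 of H2-DMb2, 14.4 of Ciita and 840.8 of Cst3. The 2 WT NOD cells with a costimulatory UMI held 1367 CPM of H2-Aa (549.5 to 2816) and 3124 of Cd74 (1786 to 5073), below the 44. Siglech, a plasmacytoid marker, was 1160 CPM in the 19 cells, 1663 in the 23 and 1806 in the 44, and Ifitm3 was 375.9 CPM in the 19 and 49.1 in the 44. Without the cells with a costimulatory UMI 0 of 10 members passed the rule. The median depth was 10015 UMIs in the 19 cells, 8539 in the 23 and 7888.5 in the 44, and what part depth, a second cell in the droplet or a cell state has in the difference was not tested.

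**Figure D5:**
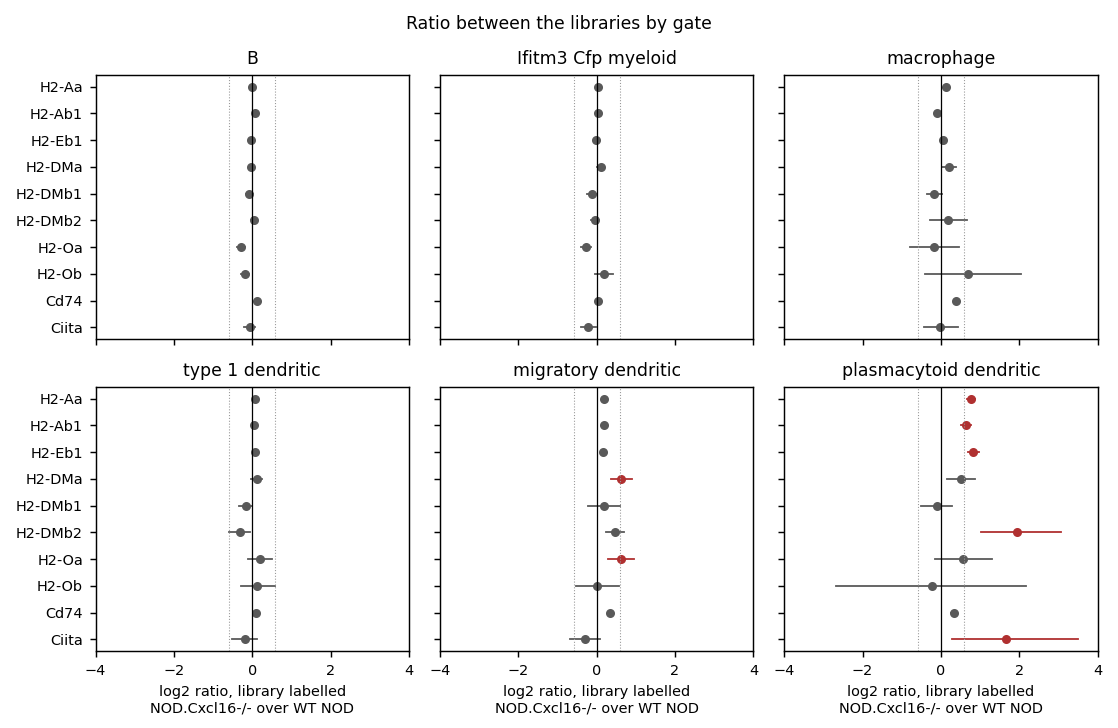
Log2 ratio of CPM, the library labelled NOD.Cxcl16-/- over WT NOD with 1 CPM added, for the 10 members in 6 gates, with exact 95% intervals for counting error, dotted lines at 1.5-fold and members past the rule in red. B cell ratios lie near 0, while 5 members are past the rule in plasmacytoid dendritic cells, with H2-DMb2 at 1.94.

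The T and NK gates gave the ratios with the most extreme values, at background level. In CD8 T cells 5 of the 10 members reached 10 CPM and none passed the rule (1.04% of genes higher, 0.659% lower). Cd74 there was 300.7 and 209.5 CPM, lower by 1.43-fold in the library labelled NOD.Cxcl16-/- with a log2 ratio of -0.52 (-0.59 to -0.45). Over 14 alternatives this ratio ran from -1.72, when each cell's own CPM was averaged, to 0.02, with clusters in place of gates. Its size therefore depended on the setting, and the lower level did not hold with clusters. In the 5% of CD8 T cells highest in the 4 genes Cd74 was 8286 and 1333 CPM, and in the others 46.1 and 45.7. CD4 T cells had H2-Oa lower by 1.62-fold (0.817% higher, 0.83% lower), a ratio that missed the rule with stricter gates. Regulatory T cells had 4 members higher (2.95% higher, 3.25% lower), with Cd74 at 118.9 and 211.2 CPM, a log2 ratio of 0.82 that was -0.05 without the highest cell of each library. Trdc T cells had 6 higher (6.86% higher, 2.25% lower), and 1 cell of the library labelled NOD.Cxcl16-/- held 872 of the gate's 1186 UMIs of the 4 genes. NK cells had 3 lower (2.42% higher, 2.5% lower) and ILC2 cells 2 lower (1.76% higher, 1.65% lower).

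The other genes of the pathway, 39 in lists of promoter factors, inducers, lineage regulators, proteases and their partners, turnover, costimulation, CD74 ligand and partner and neighbouring class II region genes, were counted by the same rule. In B cells 35 reached 10 CPM and none differed between the libraries by the rule (1.05% of all genes higher, 0.768% lower). In the Ifitm3 Cfp myeloid gate 0 of 35 did (3.29% higher, 3.07% lower), and in CD8 T cells 0 of 27 (1.04% higher, 0.659% lower). In macrophages 4 of 35 were higher and 2 lower, beside 4.87% of all genes higher and 5.25% lower. Lgmn, an endosomal protease, was 313.6 and 556.7 CPM, Cst3, a cathepsin inhibitor, 3320 and 6243, and Cd83 209.7 and 347.6. Irf4 was 3.92 and 18.3 CPM, on 2 and 24 UMIs, a log2 ratio of 1.97 (0.21 to 5.35). Ifi30, the lysosomal thiol reductase and among the lower ones, was 2916 and 1672 CPM, while Ciita differed by 1.01-fold.

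In plasmacytoid dendritic cells 11 of 34 pathway genes were higher and 1 lower, beside 5.16% of all genes higher and 4.24% lower. The higher ones included Cst3, at 834.2 and 2589 CPM, Ifi30, Spi1, Jak2, Nfyb, Lgmn, Cd80, Cd83, Cd86 and Cd40, of which the last 4 rest on 1 UMI each in the WT NOD library. Cd86 was 2.85 CPM on 1 UMI and 104.3 CPM, with a log2 ratio of 4.78 (2.64 to 10.5). Ctsl, which encodes cathepsin L, was 2036 and 1188 CPM. Migratory dendritic cells had 1 of 35 higher, Irf4 at 18.7 and 42.7 CPM, and 1 lower, Irf8 at 573.3 and 300.2. Of all genes there 4.96% were higher and 4.33% lower. Type 1 dendritic cells had Lgmn and Cd80 higher, of 31 genes (3.57% of all genes higher, 4.39% lower). Type 2 dendritic cells had Ifngr1 and Cd80 higher and Irf8, Ctsl and Cd44 lower, of 34 (2.09% higher, 5.15% lower). Plasma cells had 10 of 27 higher and 1 lower, beside the shift of all genes there (23.6% higher, 2.17% lower).

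Of the 10 genes in the list of proteases and their partners, 10 were at least 1.5-fold higher in macrophages than in B cells in both libraries, beside 19.2% of all genes. Ctss, the protease that trims the invariant chain in B and dendritic cells, was 3016 and 3472 CPM in macrophages and 516.5 and 558.9 in B cells, 5.83-fold and 6.20-fold higher. Ctsl was 20.7-fold and 28.7-fold higher, and Lgmn 7.56-fold and 12.1-fold. Among the promoter factors the highest levels in B cells were those of Creb1 (84.1 and 89.3 CPM), Nfyc (42.8 and 37.4) and Rfxap (36.5 and 35.6).

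Over the 32 combinations of gate and library, the genes outside the members and the cell markers whose log2(CPM + 1) was most like the summed H2-Aa, H2-Ab1, H2-Eb1 and Cd74 were Themis2, with a Pearson correlation of 0.951, Ifi30 with 0.949, Ctsh with 0.937, Unc93b1 with 0.931 and Ppfibp2 with 0.927, among 7955 genes. Themis2 encodes a signalling adaptor of B cells and macrophages, Ctsh a cathepsin and Unc93b1 a chaperone of endosomal Toll-like receptors. For the accessory members the same measure was 0.977 for H2-DMb1, 0.880 for H2-DMb2, 0.868 for H2-Oa, 0.859 for H2-Ob and 0.906 for Ciita. The points share libraries and free RNA, so these are descriptions with no p-value. The Cd74 gene lies apart from the class II cluster, at chr18:60803848-60812652.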

How the data were processed

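The deposited files hold raw UMI counts per gene and barcode, made by the authors with Cell Ranger 7.0.1 against mm10, per the submitters' processing notes. The library kit is 3′ chemistry, per the labels' protocols. Barcodes with under 500 genes (1582 and 311) or over 10% mitochondrial UMIs were left out. Each barcode was scored against simulated doublets (2 per barcode) with scikit-learn 1.9.0, and the highest-scored 11.1% and 8.44% were removed. These shares were fixed by the number of barcodes, at 0.8% for each 1000, and are not measured doublet rates. Cells were gated by markers, with thresholds set after looking at the data but not at members' values, and clustered without the members (scanpy 1.11.5, 30 clusters) as an alternative. UMIs were summed per gate and library and expressed as CPM. Intervals are exact Poisson for levels and exact conditional binomial for ratios (scipy 1.17.1). A gene was tested at a mean of at least 10 CPM and passed the rule at 1.5-fold with an interval leaving out 1. The rule was also run on simulated counts with counting error alone. These hold no spread among cells, so that run cannot show how the rule fares where few cells carry most UMIs. All members are named, pathway genes where their ratio reached 1.5-fold or among the highest 3 of a list, and the 5 most similar genes. March1, Pax5, Prdm1, Ctss, Ctsl and Lgmn in the comparisons between gates were named after their values were seen. Members and lists were chosen with earlier results of these data known. Per-cell values were thinned to 2000 UMIs. Some genes of the pathway lists enter the counts but are not reported here by name.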

Additional observations from a re-analysis of the deposited data

Results flagged for a closer look

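Some members had ratios of opposite sign in different gates, each with an interval that leaves out no change, and the difference between the gates was not tested. H2-Aa had a log2 ratio of 3.91 in Trdc T cells and -1.17 in NK cells, H2-Ab1 2.83 and -2.38, and Cd74 1.95 and -0.86. H2-Oa had 1.43 in Trdc T cells and -0.70 in CD4 T cells, and Ciita 2.32 in Trdc T cells and -0.69 in type 2 dendritic cells. In the Trdc gate of the library labelled NOD.Cxcl16-/- the highest 6 cells held 85.3% of the UMIs of the 4 genes, and in the NK gate of the WT NOD library the highest 5 held 80.5%. Without the highest cell of each library and gate, H2-Aa had 1.55 in Trdc T cells and -0.83 in NK cells, H2-Ab1 1.15 and -2.08, and Cd74 0.92 and -0.98, while in Trdc T cells H2-Oa had -0.20 and Ciita 0.60. The Ciita ratio in Trdc T cells rests on 3 UMIs in the WT NOD library, with an interval of 0.80 to 5.03.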

How the results depend on the processing

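Depth limits the gates with few cells and the T cell background, and with 1 library per genotype nothing separates genotype from library. No paired analysis was possible because each group has 1 library. The counts of members past the rule in B cells and in the Ifitm3 Cfp myeloid gate were 0 under every alternative that could be run for them, the latter not with clusters. In plasmacytoid dendritic cells the count of 5 was 1 with doublets kept, 2 after thinning, 2 with stricter gates and 0 without cells with a Cd86, Cd83 or Cd40 UMI. In macrophages the count of 0 was 1 after thinning, 2 with clusters and 1 with stricter gates. In CD8 T cells the count of 0 was 5 after thinning, 5 with the mean of each cell's CPM, 6 without cycling cells, and 1 with each of 4 settings: totals without immunoglobulin and similar genes, all genes with a UMI tested, at most 1 foreign UMI (of another lineage's core markers) at any depth of the cell, and without the highest cell. The log2 ratio of Cd74 in CD8 T cells, -0.52, was -1.36 after thinning, -1.72 with the mean of each cell's CPM, -1.42 without cycling cells, -0.71 with at most 1 foreign UMI and -0.61 without the highest cell. The settings on foreign UMIs, the highest cell and the costimulatory UMI were chosen after seeing the data.

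Directions turned for single members as follows, and the cause was not tested. With doublets kept, the log2 ratio was -0.068 for H2-Aa and -0.10 for H2-Eb1 in plasma cells, -0.34 for H2-Aa, -0.38 for H2-Ab1, -0.41 for H2-Eb1 and -0.42 for Cd74 in regulatory T cells, and -0.067 for H2-Ab1, -0.001 for H2-Eb1 and -0.21 for Cd74 in Trdc T cells. After thinning it was -1.01 for H2-Oa in Trdc T cells. With clusters it was 0.59 for H2-Oa in macrophages, 0.26 for H2-Ob in the clusters named type 2 dendritic and -0.46 for Ciita in Trdc T cells. Stricter gates gave -0.26 for H2-DMb1 in plasma cells, -0.022 for H2-Ab1 and -0.016 for H2-Eb1 in plasmacytoid dendritic cells, -0.011 for H2-Aa and -0.05 for H2-Eb1 in regulatory T cells, and 0.74 for H2-Aa and 0.32 for Cd74 in NK cells. At most 1 foreign UMI gave -0.12 for H2-Aa, -0.11 for H2-Eb1 and -0.20 for Cd74 in regulatory T cells. Without the highest cell of each library it was -0.14 for H2-Aa, -0.10 for H2-Eb1 and -0.046 for Cd74 in regulatory T cells and -0.20 for H2-Oa in Trdc T cells. Without cells with a costimulatory UMI it was -0.13 for H2-Eb1 and -1.08 for H2-DMb2 in plasmacytoid dendritic cells.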

Other observations

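Class II transcript was also high in 2 sets of cells that mostly met no gate, chosen here after their values were seen. A group of 30 and 20 ungated cells with Il7r, Tmem176a and Tmem176b, without a UMI of Cd3e or Cd79a, had 5506 (5139 to 5892) and 5713 (5278 to 6174) CPM of H2-Aa and 13840 and 11260 CPM of Cd74, close to the B cell levels. Il22 was at 401.7 CPM in those of WT NOD and had 0 UMIs in the others, whose exact interval ends at 33.0 CPM. Ciita was 26.3 and 107.4 CPM, on 4 and 12 UMIs, and H2-Ob 13.2 and 44.8. A cluster of 38 and 44 cells, of which 6 and 5 met a gate, led by Il1r2 and Cd86 had 797.7 (646.2 to 974.2) and 459.6 CPM of Ciita, above any gate, with 4919 and 5482 CPM of H2-Ab1, 2684 and 2718 of Cd86 and 664.8 and 892.6 of Cd80. Its H2-Aa level, 3906 and 3224 CPM, was below that of B cells. The cells of this cluster were shallow, with medians of 2750 and 2868.5 UMIs against 11301 and 12453 in the type 2 dendritic gate. Cst3 was 1379 and 1406 CPM there, against 8967 and 8548 in that gate. What part depth or barcode quality has in the Ciita level was not tested. These 2 sets are not all the class II transcript outside the gates. An unnamed cluster of 720 and 141 cells, with a median of 1489 UMIs, was led by Cd74, H2-Aa, H2-Ab1 and H2-Eb1. Unnamed clusters of 25 and 61 cells and of 97 and 92 cells also had these 4 genes among their leading genes. How many cells of these clusters met a gate is not given here.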
